A study of Homo sapiens with 6 samples.

Results

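The genes described here are the 10 enzymes that make serine (PHGDH, PSAT1, PSPH), pass its carbon to folate (SHMT1, SHMT2, MTHFD1, MTHFD2, MTHFD1L) and use it to turn homocysteine into cysteine (CBS, CTH). They were taken by symbol, and each of the 10 symbols matched 1 gene among 58735 in the table. MOLM-13 is a human acute myeloid leukaemia line with a rearranged KMT2A gene and an activating FLT3 duplication. All cultures are labelled wild type, grew in RPMI-1640 with 20% fetal bovine serum, 2 mM glutamine and penicillin with streptomycin, and were kept for 48 hours. The control group was 3 untreated cultures. The other group was 3 cultures given 3.5 nM 8p, a synthetic kinase inhibitor (of RET and CDK kinases in the design text, RET and CDK8 in the sample labels), against a stated IC50 of 7 nM. The submitters call the cultures independent biological replicates, all of 1 cell line. Whether controls received the solvent of 8p is not stated, so any solvent effect is part of each difference.

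Serine is made from a glycolytic intermediate by PHGDH, PSAT1 and PSPH acting in turn. SHMT enzymes then move a carbon from serine to tetrahydrofolate, leaving glycine. In mitochondria MTHFD2 oxidises that carbon and MTHFD1L releases it as formate, which MTHFD1 returns to folate in the cytosol for purine and thymidylate synthesis. CBS joins serine to homocysteine, and CTH splits the product to give cysteine. Rapidly dividing leukaemia cells draw on these routes for nucleotides and glutathione, and several of the genes are known targets of the stress-response factor ATF4 and of MYC.

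All 10 genes were lower with 8p. Their summed level was 1544, 1588 and 1626 CPM (counts scaled to a common library total) in control replicates 1 to 3, and 322.5, 316.6 and 300.5 CPM in the 8p replicates. The median log2 fold change (8p minus control) of the 10 genes was −2.09, against 0.03 over the 13822 genes tested. All 10 passed the low-count filter and were called lower (edgeR quasi-likelihood test, Benjamini-Hochberg adjusted p under 0.05), where 36.9% of tested genes were called lower and 74.7% were called in either direction. CBS passed the filter through the control libraries alone. All 10 had every 8p library below every control library, which held for 38.0% of tested genes, while 77.0% had groups that did not overlap in either direction. A call with a log2 fold change below −2 was made for 6 of the 10 and for 5.38% of tested genes. PSPH and MTHFD2 lay close to that value, so the count was 4 with upper quartile scaling, 5 with protein-coding genes alone and 7 without 8p replicate 3. In bulk RNA, fewer cells carrying a transcript and less of it per cell cannot be told apart.

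**Figure D1:**
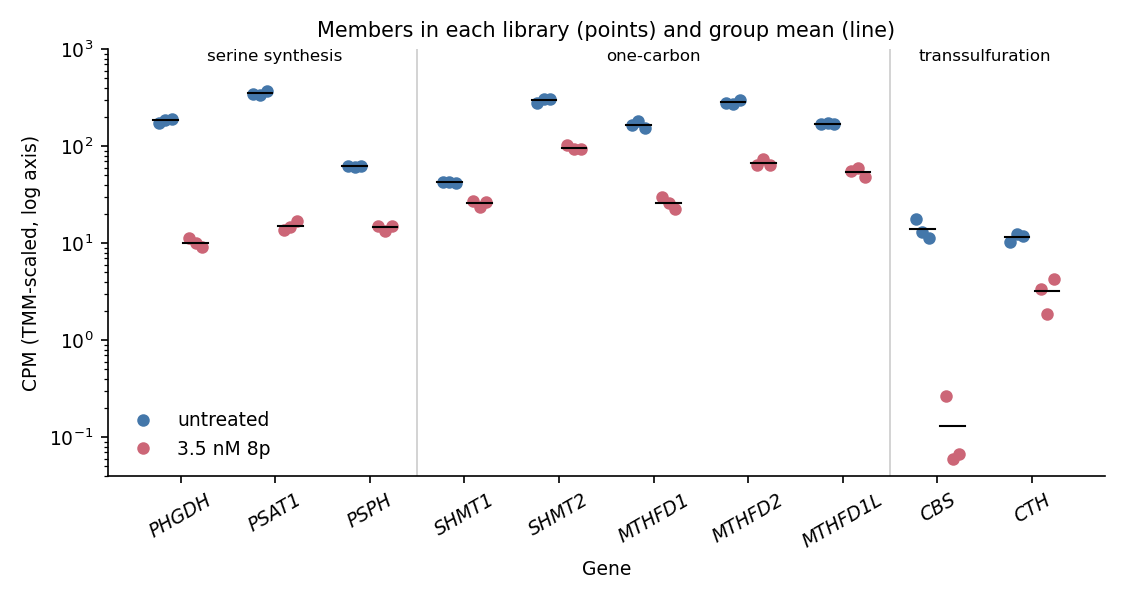
Level of each of the 10 genes in each library (points; CPM, log axis) with the group mean (line), untreated in blue and 3.5 nM 8p in red, ordered by role. No gene has overlapping groups; CBS with 8p lies between 0.0599 and 0.266 CPM.

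Total counts ran from 14972069 to 23485628 per library and were lower in every 8p library than in every control. Mitochondrially encoded genes took 1.64% to 1.91% of control counts and 6.42% to 10% with 8p. Leaving them out moved no log2 fold change of the 10 genes by more than 0.0092 on the log2 scale. Replicate 2 of 8p stood apart on the second principal component (35.0, against −16.7 and −18.6 for the other 8p libraries), which held 4.61% of the variance. Of 12 myeloid markers 11 were tested, and their summed level was 2050 to 2179 CPM in controls and 4848 to 5519 CPM with 8p. Most of that gap was LYZ, at a mean of 1040 CPM and then 3732 CPM. Of the 11, 6 were called higher and 3 lower (CD33, MPO and HOXA9), while ITGAM and MEIS1 were not called. The shares over all tested genes were 37.9% higher and 36.9% lower. CD68 was not tested, with 11 counts in controls and 0 with 8p. In the epithelial and fibroblast list the sum was 1.12 to 2.07 CPM in controls and 28.1 to 39.1 CPM with 8p, mostly COL1A1, while EPCAM, KRT19, COL1A2 and DCN were at 0. The T and NK cell sum was 21.0 to 24.8 CPM and then 30.7 to 38.7 CPM, mostly NKG7, while CD3D fell from 3.01 to 0.481 CPM. B cell markers stayed between 1.48 and 2.29 CPM, with PAX5 at 0, and erythroid and megakaryocyte markers summed to at most 0.270 CPM, with 4 of 6 at 0. The part of these markers in the results was not tested.

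Promoter windows, 250 bases before to 50 after a RefSeq start (GRCh38.p14), were matched for 8 of the 10 genes; none was used for PSPH and SHMT2. All 8 held the letters CCAAT on one strand or the other, a sequence known to bind the factor NF-Y. This motif was looked for after the windows had been read. It occurred in at least 1 window of 39.7% of all 27305 genes with windows, and of 43.2% of the 9512 such genes that were tested. PSAT1 had 3 matches in its single window, CBS a match in 2 of its 3 windows and MTHFD1L in 3 of its 4. As the motif was picked from these windows, its presence in all 8 tests nothing about the fall. For each gene the match nearest to and upstream of a start is shown with 12 bases on each side. Letters run 5′ to 3′ on the gene's strand, with the motif in capitals (CCAAT, or ATTGG where it lies on the other strand). The motif began 25 bases before the start in SHMT1, 40 in MTHFD1L, 52 in PSAT1, 58 in CBS, 71 in PHGDH, 74 in MTHFD2, 117 in CTH and 216 in MTHFD1.
PHGDH (chr1:119711851-119711879, plus strand): gagtatttccgtCCAATcaaaaggagact
PSAT1 (chr9:78297061-78297089, plus strand): cgacagcacgggCCAATggggcgccgact
SHMT1 (chr17:18363559-18363587, minus strand): ctgcgctctctgATTGGgcgcctccgggg
MTHFD1 (chr14:64388125-64388153, plus strand): tctttctttccgCCAATcatttccgccag
MTHFD2 (chr2:74198529-74198557, plus strand): atgcggcagggaCCAATgggtggcggagg
MTHFD1L (chr6:150866281-150866309, plus strand): gcgtgggcatctCCAATgggcgcctagcg
CBS (chr21:43075877-43075905, minus strand): cccgcctctccgCCAATcaccgcccgcct
CTH (chr1:70411139-70411167, plus strand): ctctgctgtcagCCAATaaggagcgggag

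Other motifs were rarer among the 8 genes. The core of the CEBP-ATF response element (TGATGNAA, both strands), to which ATF4 dimers bind, was found in MTHFD1L alone, and in 4.46% of all genes with windows (2.51% of those tested). The E-box CACGTG, a site type of MYC, was found in MTHFD1L and MTHFD1, and in 8.77% of genes (13% of those tested). Relative to the start used for the CCAAT stretch of MTHFD1L, its E-box begins at −1 and its CEBP-ATF core at 25. Relative to other starts the E-box begins at −154 or −115, and the core at −129 or −90. In MTHFD1L the E-box and the CEBP-ATF core lie 19 bases apart without overlap, shown here in that order with each motif in capitals.
MTHFD1L (chr6:150866320-150866349, plus strand): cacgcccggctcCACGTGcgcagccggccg
MTHFD1L (chr6:150866346-150866375, plus strand): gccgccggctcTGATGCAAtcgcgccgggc
The antioxidant response element core (TGACNNNGC) was found in CBS and MTHFD2, and in 16.1% of genes (19.7% of those tested). The E2F motifs TTTCGCGC and TTTGGCGC were found in none of the 8 genes, and in 0.63% and 0.795% of genes (1.15% and 1.41% of those tested). A match describes the letters and not a bound site.

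The first enzymes of serine synthesis lost nearly all of their transcript. PSAT1 (ENSG00000135069; GRCh38 chromosome 9, 78297143 to 78330093, plus strand), the aminotransferase of the route, stood at 346, 334 and 371 CPM in control replicates 1 to 3 and at 13.7, 14.7 and 16.9 CPM with 8p. The lowest control was far above the highest 8p library. The group means were 350.3 ± 19.0 and 15.1 ± 1.65 CPM (SD, n = 3), a 23.2-fold difference (log2 fold change −4.53, SE 0.09, edgeR adjusted p = 1.03e-14). PHGDH (ENSG00000092621; chromosome 1, 119648411 to 119744226, plus strand), which commits carbon to the route, was at 173, 189 and 192 CPM in controls and at 11.3, 10.01 and 9.18 CPM with 8p. It fell 18.1-fold (−4.18, SE 0.09, edgeR adjusted p = 1.92e-14). From the lowest log2 fold change up, PSAT1 had rank 61 and PHGDH rank 78 of the genes tested.

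PSPH (ENSG00000146733; chromosome 7, 56011051 to 56051604, minus strand), the phosphatase that releases serine, fell less. Its values were 62.7, 61.3 and 62.5 CPM in controls and 14.9, 13.5 and 15.2 CPM with 8p, so that 23.4% of the control level was left, against 4.32% for PSAT1 and 5.51% for PHGDH. The log2 fold change was −2.10 (SE 0.09, edgeR adjusted p = 9.50e-12). PSPHP1, an unprocessed pseudogene named after PSPH that shares no identical 100-base window with its transcript, went from 13.1 to 10.3 CPM (log2 fold change −0.35).

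Whether genes changed unequally was asked with the log2 ratio of 2 genes' counts per base within each library, which does not depend on library scaling. The bases were those of the deposited gene length, the union of all exons. The level of a ratio therefore depends on the length used, while the difference between groups does not. The ratio of PSAT1 to PSPH was 2.80, 2.78 and 2.91 in controls and 0.22, 0.46 and 0.49 with 8p, so the 8p libraries lay lower without overlap. Its mean differed by −2.44, a 5.42-fold larger loss of PSAT1. PHGDH against PSPH differed by −2.08, also without overlap. PSAT1 against PHGDH differed by −0.35, with values of 3.07, 2.90 and 3.03 in controls and 2.35, 2.63 and 2.96 with 8p that overlapped (exact two-sided permutation p = 0.2, adjusted over 8 pairs 0.2). For each of the other 7 pairs the groups did not overlap and the exact permutation p was 0.1, the smallest that 3 against 3 allows (adjusted 0.114).

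**Figure D2:**
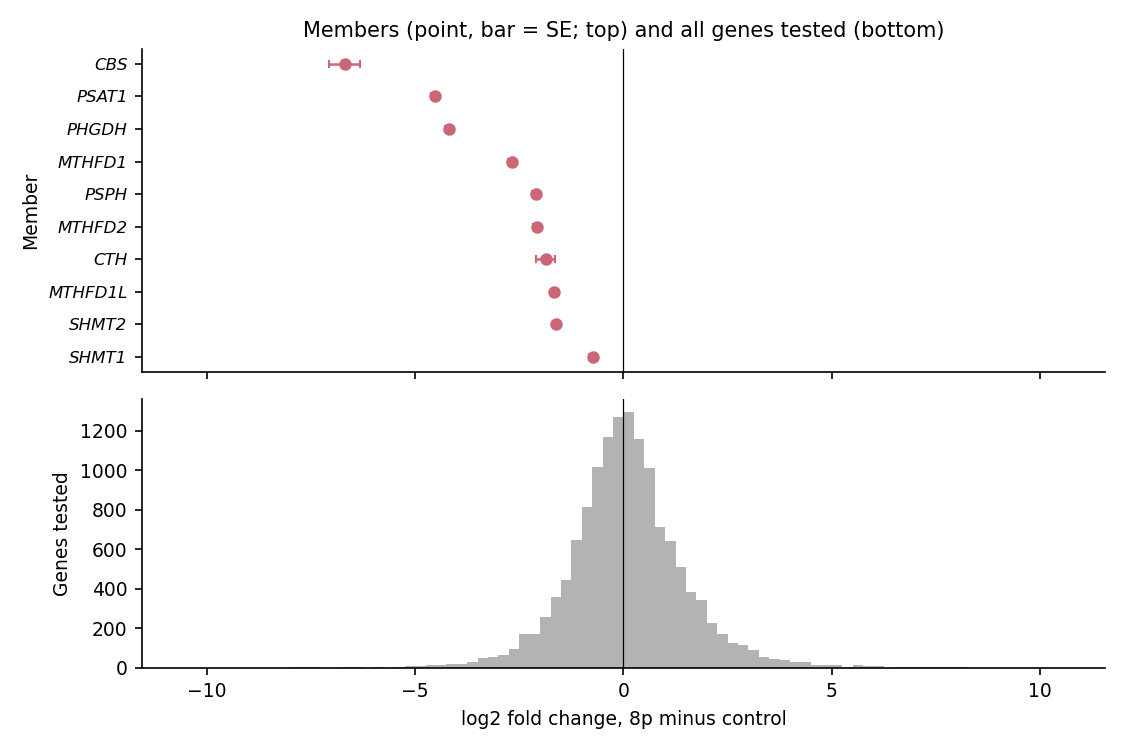
Top, log2 fold change (8p minus control) of each of the 10 genes with its SE; bottom, number of tested genes by log2 fold change in bins. The 10 genes span −6.69 to −0.73, while the 13822 tested genes centre on 0.03.

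Both serine hydroxymethyltransferases fell. The measured fall was larger for the mitochondrial SHMT2, but the counts of the cytosolic SHMT1 may include reads of a gene on the other strand that rose. SHMT2 (ENSG00000182199; chromosome 12, 57229327 to 57234935, plus strand) was at 278, 306 and 309 CPM in controls and 102.5, 93.4 and 94.2 CPM with 8p, a 3.08-fold fall (log2 fold change −1.62, SE 0.07, edgeR adjusted p = 1.50e-11). SHMT1 (ENSG00000176974; chromosome 17, 18327860 to 18363563, minus strand), the cytosolic form, was at 43.1, 42.8 and 41.9 CPM in controls and 26.95, 23.5 and 26.8 CPM with 8p. That was the smallest fall of the 10 genes (−0.73, SE 0.09, edgeR adjusted p = 2.28e-06), with 60.5% of the control level left. The ratio of SHMT2 to SHMT1 was 3.28, 3.43 and 3.47 on the log2 scale in controls and 2.52, 2.58 and 2.40 with 8p, without overlap. The mean difference was −0.89 (exact permutation p = 0.1). SHMT1 shares 196 exon bases with SMCR8 on the other strand, whose counts were 101% of those of SHMT1 in controls and 355% with 8p. SMCR8 rose (log2 fold change 1.10), and without the strand setting of the counting its reads there cannot be told apart from those of SHMT1, so the size of the SHMT1 fall and of the ratio is uncertain.

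In the folate steps that follow, the cytosolic gene fell most. MTHFD1 (ENSG00000100714; chromosome 14, 64388031 to 64463457, plus strand), a cytosolic enzyme of 3 activities, was at 164, 180.1 and 155 CPM in controls and at 30.1, 25.9 and 22.3 CPM with 8p. It fell 6.37-fold (log2 fold change −2.67, SE 0.10, edgeR adjusted p = 2.92e-12). ZBTB25 shares 178 exon bases with MTHFD1 on the other strand and held 4.22% of its counts in controls and 59.4% with 8p. ZBTB25 rose by 1.14 on the log2 scale.

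MTHFD2 (ENSG00000065911; chromosome 2, 74198562 to 74217565, plus strand), the mitochondrial dehydrogenase and cyclohydrolase, was at 279, 275.5 and 302 CPM in controls and 63.8, 74.4 and 63.9 CPM with 8p. The 4.24-fold fall (−2.08, SE 0.08, edgeR adjusted p = 2.79e-12) was close in size to that of PSPH. MTHFD1L (ENSG00000120254; chromosome 6, 150865549 to 151101887, plus strand), the mitochondrial enzyme that releases formate, was at 168, 174 and 171 CPM in controls and 55.6, 59.3 and 47.6 CPM with 8p. Its 3.16-fold fall (−1.66, SE 0.08, edgeR adjusted p = 5.13e-11) was of nearly the same size as that of SHMT2.

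Within libraries, the measured ratios of both mitochondrial genes to MTHFD1 were higher with 8p. The log2 ratio of MTHFD1L to MTHFD1 was 0.94, 0.85 and 1.05 in controls and 1.79, 2.09 and 1.99 with 8p, a mean difference of 1.01. The control level of this ratio turned with the length used. With the length of the principal transcript alone, MTHFD1 lay above MTHFD1L in controls (53.05 against 47.51 CPM per kilobase, separate ranges). For MTHFD2 against MTHFD1 the difference was 0.59, and here the lowest 8p value (2.03) was close to the highest control (1.91). MTHFD2 against MTHFD1L differed by −0.42. These 3 pairs had an exact permutation p of 0.1 each, and 0.114 after adjustment over 8 pairs. For MTHFD2 against MTHFD1 the exact permutation p was 0.2 when any 1 control was left out.

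**Figure D3:**
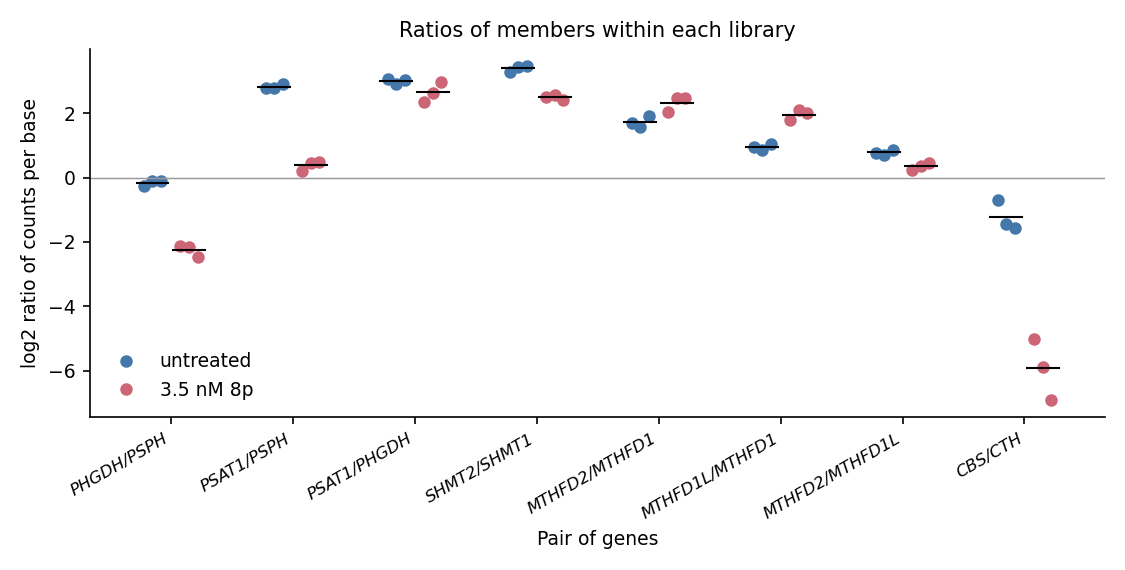
log2 ratio of counts per base (0.5 counts added to each gene) for 8 pairs within each library, with group means as lines, untreated in blue and 3.5 nM 8p in red. Groups overlap for PSAT1/PHGDH alone, and the widest gap is that of CBS/CTH, with means of −1.24 and −5.94.

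CBS fell most of the 10 genes. CBS (ENSG00000160200; chromosome 21, 43053191 to 43076943, minus strand) had 425, 276 and 206 counts in control replicates 1 to 3 and 4, 1 and 1 counts in the 8p replicates. On the CPM scale these were 17.9, 12.9 and 11.2 against 0.266, 0.0599 and 0.0675. The log2 fold change was −6.69 (SE 0.37, edgeR adjusted p = 1.84e-10), at rank 17 from the lowest. The ratio of pooled counts was 111 with an exact 95% binomial interval of 50.7 to 303, which covers counting error only. Without 8p replicate 1, which held 4 of the 6 counts, the log2 fold change was −7.67.

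CBSL, a near-identical copy in the build (chromosome 21, 6444869 to 6468040, minus strand), shares reads with CBS, so both are uncertain. Of 100-base windows along the main CBS transcript 92.4% occur unchanged in a CBSL transcript, and RefSeq lists CBSL as a synonym of CBS. CBSL had 7, 6 and 73 counts in controls and 0, 0 and 2 with 8p. It took 26.2% of the pair's counts in control replicate 3, against 1.62% and 2.13% in the other controls. With both genes summed, the controls were at 18.2, 13.2 and 15.2 CPM and the 8p libraries at 0.266, 0.0599 and 0.202 CPM. The sum fell by 6.44 on the log2 scale (edgeR adjusted p = 3.44e-11), and its pooled ratio was 91.0 (46.0 to 211). How reads matching several places were counted is not stated, so the level of CBS is uncertain in both groups.

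CTH (ENSG00000116761; chromosome 1, 70411218 to 70439851, plus strand), the next enzyme, was at 10.4, 12.6 and 11.8 CPM in controls and 3.39, 1.86 and 4.32 CPM with 8p. The 8p libraries held 51, 31 and 64 counts, and their coefficient of variation was 39.0%, against 9.64% in controls. The log2 fold change was −1.87 (SE 0.23, edgeR adjusted p = 2.12e-06). The ratio of CBS to CTH was −0.70, −1.45 and −1.57 on the log2 scale in controls and −5.01, −5.88 and −6.92 with 8p. The difference of −4.70 (exact permutation p = 0.1) rests on few CBS counts, and was −3.94 with 2 counts added to each gene in place of 0.5.

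Levels were compared between genes per length, as RPKM (CPM divided by the deposited gene length in kilobases). In controls PSAT1 was highest at 160.1 ± 8.70 RPKM, followed by SHMT2 (61.5 ± 3.49) and MTHFD2 (58.6 ± 2.89), whose ranges overlapped. MTHFD1L (34.1), PSPH (22.5), PHGDH (20.0), MTHFD1 (17.7), SHMT1 (5.85), CTH (4.80) and CBS (2.06) came next, and among these neighbours the ranges overlapped for PHGDH and MTHFD1 alone. With 8p, SHMT2 was highest at 20.0 ± 1.04 RPKM, then MTHFD2 (13.8) and MTHFD1L (10.8). PSAT1 followed (6.91 ± 0.75), and PHGDH (1.10) stood next above CBS (0.0193), overlapping CTH (1.32), an order that turned with the length used. The deposited length is the union of all exons, 9217 bases for PHGDH against 2585 for its principal transcript. With principal transcript lengths, PHGDH had rank 3 in place of 6 in controls (71.4 RPKM) and with 8p lay above CTH without overlap (3.93 against 1.77). PSAT1 went from rank 1 in controls to rank 6 with 8p, where its range overlapped those of MTHFD1 and PSPH.

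The other genes of these routes were taken from a list of 70, of which 58 passed the low-count filter. With 8p, 32 of them were called lower and 12 higher, where 36.9% of all tested genes were lower and 37.9% higher. The median of the 58 log2 fold changes was −0.46.

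**Figure D4:**
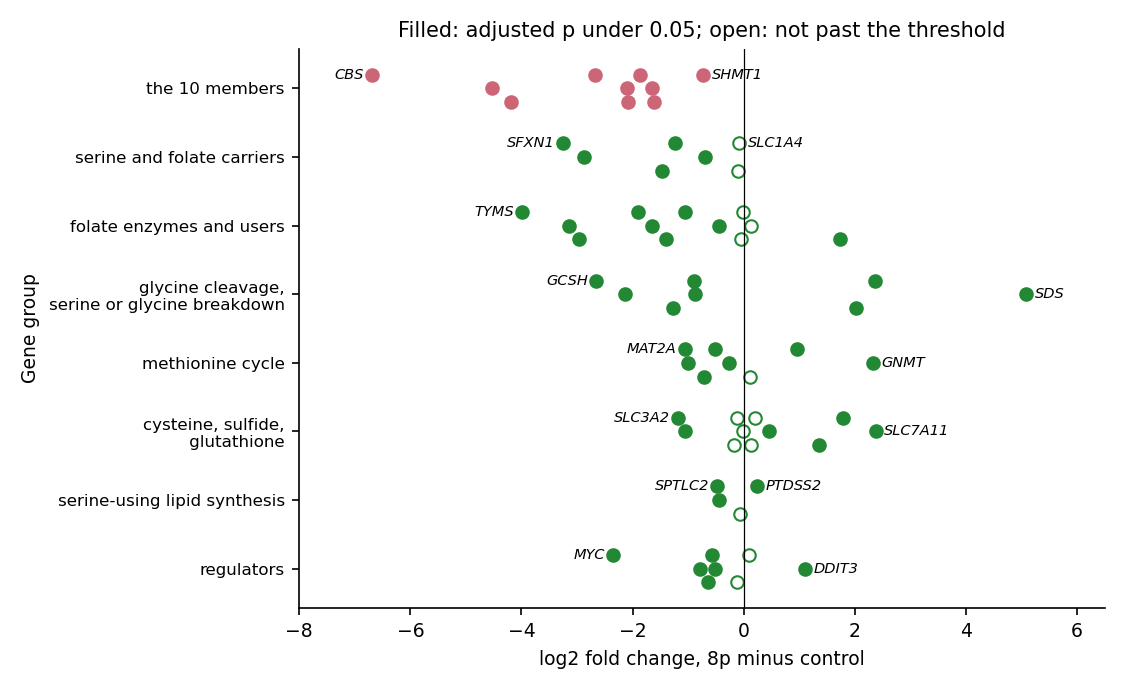
log2 fold change (8p minus control) of the 10 genes (red) and of the 58 tested genes of the list by role (green), filled where past the threshold and open where not. The groups of carriers and folate enzymes lie mostly below 0, while serine breakdown (SDS) and cystine uptake (SLC7A11) hold the highest values.

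Of 7 tested serine and folate carriers 5 were lower and none was higher, against 36.9% and 37.9% of all tested genes. SFXN1, which brings serine into mitochondria, was at 111.0, 103 and 105 CPM in controls and 12.1, 11.0 and 10.5 CPM with 8p (log2 fold change −3.25). SLC1A5, a plasma membrane carrier of neutral amino acids, fell from 251 ± 7.43 to 34.4 ± 1.71 CPM (−2.87), and SFXN2 and SFXN3, relatives of SFXN1, fell by 1.48 and 0.69 on the log2 scale. SLC19A1, the reduced folate carrier, fell by 1.24. SLC1A4, another serine carrier, was at 145 CPM and then 137 CPM (−0.08, edgeR adjusted p = 0.319, and 0.0324 to 0.937 over the alternatives).

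Of 12 tested folate enzymes and users 8 were lower and 1 was higher, against 36.9% and 37.9% of all tested genes. TYMS, which makes thymidylate with a folate carbon, was at 93.4, 96.8 and 90.9 CPM in controls and 5.06, 5.03 and 7.76 CPM with 8p (−3.98). ALDH1L2, which oxidises mitochondrial formyl-folate, fell from 57.7 ± 5.46 to 6.51 ± 0.99 CPM (−3.15). The folate hydrolase GGH fell by 2.97 on the log2 scale. MTHFD2L, the close relative of MTHFD2, had 8.47, 7.24 and 8.87 CPM in controls and 9.12, 6.77 and 7.76 CPM with 8p, overlapping groups (−0.06, edgeR adjusted p = 0.760). Genes on the other strand that overlap TYMS (ENOSF1) and ALDH1L2 (C12orf45) held 495% and 455% of their counts with 8p, so their levels with 8p are uncertain.

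Among genes of serine and glycine breakdown, SDS rose most. SDS, a dehydratase that turns serine into pyruvate, was at 3.20, 2.71 and 1.69 CPM in controls and 91.9, 85.8 and 86.4 CPM with 8p. It rose by 5.09 on the log2 scale (SE 0.14, edgeR adjusted p = 1.62e-13), the highest value of the list and opposite to the genes that make serine. Its relative SDSL rose from 3.81 ± 0.222 to 19.6 ± 2.66 CPM (2.37). GCSH, the carrier protein of glycine cleavage, fell by 2.66, and 9.31% of its 100-base windows recur in copies. Of the 8 tested genes of this group 5 were lower (GCSH, SARDH, GCAT, SRR and DLD) and 3 higher (SDS, SDSL and DMGDH). The share of higher genes was near that of all tested genes (37.9%), of which 36.9% were lower. DMGDH, at 0.291 ± 0.113 CPM in controls and 1.23 ± 0.178 CPM with 8p, passed the low-count filter through the 8p libraries alone. SARDH, at 2.41 CPM in controls and 0.541 CPM with 8p, passed it through the controls. The glycine decarboxylase GLDC had too few counts to be tested.

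In the methionine cycle, 5 of 8 tested genes were lower (MAT2A, AHCY, MTR, AHCYL1 and MTRR) and 2 higher (GNMT and AHCYL2). The shares over all tested genes were 36.9% and 37.9%. The call of MTRR was lost with upper quartile scaling (edgeR adjusted p = 0.356). MAT2A, which makes the methyl donor S-adenosylmethionine, fell by 1.06, and AHCY, which clears its product, by 1.00 on the log2 scale. GNMT, which uses glycine as methyl acceptor, rose from 1.32 ± 0.40 to 6.79 ± 0.90 CPM (2.34). PEX6 on the other strand, which shares 11 exon bases with GNMT, held 1250% of its counts in controls and 363% with 8p. The size of the GNMT rise is therefore uncertain.

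Of 11 tested genes of cysteine, sulfide and glutathione metabolism 4 were higher, near the 37.9% of all tested genes. Another 2 were lower, against 36.9% of all tested genes. SLC7A11, the light chain of the cystine importer, was at 20.5, 21.3 and 23.7 CPM in controls and 110.3, 120.2 and 110.2 CPM with 8p, a rise of 2.38 on the log2 scale (SE 0.08, edgeR adjusted p = 1.58e-12). GCLC, the catalytic subunit of the first glutathione step, rose from 52.9 ± 2.94 to 135 ± 3.56 CPM (1.35), while its partner GCLM was at 27.8 ± 1.60 and 27.5 ± 2.31 CPM (−0.02, edgeR adjusted p = 0.885). CSAD, of taurine synthesis, rose by 1.79. ZNF740 on the other strand held 1820% of the CSAD counts in controls and 791% with 8p, so the size of that rise is uncertain. SUOX, the sulfite oxidase, rose by 0.45, a call lost without the low-count filter (edgeR adjusted p = 0.0516). The heavy chain SLC3A2 fell by 1.18 and the glutathione synthetase GSS by 1.05.

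Of 4 tested enzymes that put serine into lipids 2 were lower and 1 higher, against 36.9% and 37.9% of all tested genes. PTDSS1, of phosphatidylserine synthesis, fell by 0.45 and SPTLC2, of sphingolipid synthesis, by 0.48 on the log2 scale. PTDSS2 rose by 0.25 (edgeR adjusted p = 0.0419), a call that was lost under 9 of 17 alternatives (adjusted p 0.00127 to 0.353). Of 8 tested regulators 5 were lower, MYC, ATF4, ATF5 and KEAP1 among them, and 1 higher, against 36.9% and 37.9% of all tested genes. ATF4 fell from 794 ± 31.8 to 457 ± 27.2 CPM (−0.79), MYC fell by 2.35 on the log2 scale, and DDIT3, a stress-induced factor, rose by 1.11. On the other strand of DDIT3, MARS held 3800% of its counts in controls and 763% with 8p, and MBD6 674% and 817%. The size of the DDIT3 rise is therefore uncertain. NFE2L2, which drives antioxidant genes, was at 82.5 ± 4.81 and 76.2 ± 3.12 CPM (−0.11, edgeR adjusted p = 0.180). It was called lower without the low-count filter (edgeR adjusted p = 0.0197). AGPS on the other strand, which shares 54 exon bases with NFE2L2, held 122% of its counts in controls and 81.6% with 8p.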

How the data were processed

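RNA of 6 MOLM-13 cultures was analysed from the authors' deposited table of raw read counts per gene, whole numbers whose totals differ between libraries. The labels do not say whether poly(A) capture or rRNA removal was used. HISAT2 2.0.5, featureCounts 1.5.0-p3, DESeq2 1.20.0, edgeR 3.22.5 and build hg38 are named, per the submitters' processing notes; the strand setting and the handling of multiply matching reads are not given in the sources used here. Deposited positions and lengths of all 58735 genes equalled those of GENCODE release 29, lengths being unions of exons.

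Counts were tested in R 4.3.3 with edgeR 4.0.16 (quasi-likelihood F test, TMM factors, filterByExpr, group as the only term) and Benjamini-Hochberg adjustment over 13822 genes; the SE is the log2 fold change divided by the square root of F. CPM are TMM-scaled. No spike-in is recorded, so changes are relative to the other transcripts. Within-library ratios used 0.5 added counts and exact permutation over samples. On simulated counts, 67, 67 and 66 genes were changed by 0.5, 1 and 2 on the log2 scale. Of these, 52.2%, 91.0% and 93.9% were recovered, with 11 false calls among 12676 unchanged genes. In the data 74.7% of tested genes were called, a far larger share, so the simulation does not show how the test performs here. Library totals of 14972069 to 23485628 make genes with few counts, such as CBS with 8p, the least precise.

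The 10 genes, the list of 70 and the tests were chosen with earlier results of these data known. From each role of the list, the up to 3 called genes of largest change were named (mean log2 CPM 1 or more), with ATF4, MYC, NFE2L2, TYMS, MTHFD2L and ALDH1L2 whatever their result; all other genes of the list were named after their values were seen, and some genes of the list are not reported here by name. For PSAT1, PHGDH and CBS the 3 genes of nearest pattern were taken. Alternatives were DESeq2 1.42.0, voom in limma 3.58.1, 3 other scalings, 2 other filters, a replicate block, each library left out, mitochondrial genes left out, protein-coding genes alone and a threshold of 0.01; summing CBS with CBSL and leaving out libraries, and principal transcript lengths, were chosen after seeing the data.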

Additional observations from a re-analysis of the deposited data

How the results depend on the processing

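All 10 genes were called lower and none higher under each of the 17 alternatives, and each log2 fold change kept its sign and its side of the threshold. Upper quartile scaling moved the median of all tested genes from 0.03 to 0.22 and every value of the 10 genes up by about as much, leaving SHMT1 at −0.54; the median was 0.15 over the 18858 genes of DESeq2 and 0.14 without a filter. Leaving out single libraries gave 9871 to 10640 called genes, and the list of 70 then had 32 to 33 lower and 11 to 13 higher. With upper quartile scaling the list had 31 lower and 16 higher, and of all tested genes 30.8% were lower and 45.1% higher. Without 8p replicate 2 the largest shift was that of CBS, by 0.33, and of the genes other than CBS and CTH, 0.11. CTH ranged from −2.17 without 8p replicate 3 to −1.61 without 8p replicate 2. The sign of SLC1A4, GCLM, NFE2L2 and MTHFD2L turned under upper quartile scaling. The labels do not say that a replicate number marks a common day or batch, so the numbers were not taken as pairs. Deviations of same-numbered control and 8p libraries had correlations of −0.01, −0.02 and −0.04. With 3 libraries per group these values cannot settle whether the cultures were paired. With the replicate number as a block 10090 genes were called, all 10 genes stayed lower, and the list had 32 lower and 11 higher. For the ratios the block gave the same differences with an exact sign-flip p of 0.25, the smallest that 3 pairs allow. The difference of PSAT1 against PHGDH ranged from −0.51 without 8p replicate 3, where the groups did not overlap (exact permutation p = 0.1), to −0.21 without 8p replicate 1. Depth limits CBS most, with 6 counts over the 8p libraries.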

Other observations

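Among all tested genes, the pattern nearest to that of PHGDH, by Euclidean distance between log2 CPM values centred on the control mean over the 6 libraries, was that of LAPTM4B (distance 0.256), a lysosomal membrane protein, which went from 171 ± 17.0 to 9.90 ± 1.63 CPM. SLC38A5, an amino acid carrier (0.268, from 134 ± 10.7 to 7.60 ± 0.49 CPM), and the exonuclease EXO1 (0.419) followed. PSAT1 was nearest to KCTD15 (0.359, from 31.5 ± 2.03 to 1.37 ± 0.21 CPM), then to CDC45 of the replicative helicase (0.369) and the uracil glycosylase UNG (0.436). PHGDH and PSAT1 were each other's nearest among the 10 genes, at 0.761. The distance follows the size of the fall as well as the spread between libraries. CBS was farther from its neighbours: OCSTAMP, at 0 in all 8p libraries, was nearest at 1.10, followed by RRM2 (1.29) and MCM10 (1.33). Their log2 fold changes were −10.04, −5.45 and −5.69, against −6.69 for CBS. The log2 CPM values used a prior count of 2, which shrinks falls to very few counts, so the neighbours of CBS depend on that setting.

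Within the 10 genes the closest pairs were SHMT2 with MTHFD1L (distance 0.265), both mitochondrial, and PSPH with MTHFD2 (0.321). SHMT1 was 1.56 from its nearest member, SHMT2.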
